A study of Mus with 50 samples.

Results

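Respiratory complex I is described here through the 42 genes, of 22180 named genes on the array, whose annotated symbol begins with Nduf. Each gene was read from the probe set that carries its symbol alone and, where there were several, from the one with the highest median. The 42 comprise 6 core subunits, 26 accessory subunits and 8 assembly factors (Ndufaf1 to Ndufaf8). The other 2 are Ndufa4, which carries the family name but is now placed with complex IV, and its paralogue Ndufa4l2. A further 7 Nduf symbols, among them Ndufb2, Ndufb4 and Ndufs6, appear only on probe sets shared with other genes and were left out.

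The samples are livers of 50 female mice of a backcross between C57 and FVB, all carrying the MMTV-Neu transgene and all labelled with breast cancer as comorbidity. The MMTV promoter drives the Neu oncogene mainly in mammary epithelium, so the liver is not the tissue that the transgene is aimed at. The study chose mice at the extremes of a grade of ageing and asked about susceptibility to breast cancer, but the labels analysed here give neither value per mouse, so the 50 livers form a single group and no contrast between groups was made. Ages are not given in the sources used here, and the extraction text speaks of purified cells although the tissue is labelled liver. Liver was borne out by its markers: all 11 measured hepatocyte genes lay above the median level of all named genes, Alb, the plasma albumin, with a median of 13.46 on the array's log2 scale.

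Complex I takes electrons from NADH and passes them to ubiquinone, and it pumps protons across the inner mitochondrial membrane as it does so. Its matrix arm holds the flavin and the iron-sulphur clusters on nuclear-encoded core subunits, while the core of its membrane arm is encoded by mitochondrial DNA. Accessory subunits surround this core in mammals, assembly factors build the complex without remaining in it, and in liver the enzyme reoxidises the NADH made by fatty acid oxidation and the citric acid cycle.

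Values are log2 signals after RMA, the array's standard background correction, quantile normalisation and probe summary. Signals of different probe sets are not comparable as amounts of RNA, so levels are ordered only between livers within a gene. Array medians ranged from 3.27 to 3.34. The livers of animals 64, 84, 87, 96, 161 and 235 stand apart, in that their median correlation with the other arrays was far below the rest, and results that rest on them are given with and without them. Each mouse is a separate animal by its number.

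The core subunits were all measured well above the median level of 3.61. Ndufv1, the subunit that binds NADH and the flavin, ranged from 7.17 through a median of 7.80 to 8.13. Ndufs1, the largest core subunit and a carrier of iron-sulphur clusters, ranged from 7.12 through 7.87 to 8.67. Ndufv2, which carries an iron-sulphur cluster beside the flavin, ranged from 7.57 through 8.06 to 8.44. Animal 235 was lowest in Ndufv1 and Ndufs1, and animal 161 was lowest in Ndufv2. Ndufs3, of the part of the matrix arm nearer the membrane, ranged from 4.66 through 5.24 to 5.57. Ndufs7, which holds the last iron-sulphur cluster before ubiquinone, ranged from 8.89 through 9.27 to 9.61. Ndufs8, another iron-sulphur subunit of this part, ranged from 8.10 through 8.74 to 9.15. The 5 lowest Ndufs8 values all came from livers that stand apart, those of animals 84, 96, 161, 87 and 235, whereas the lowest Ndufs7 value came from animal 91, which does not.

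**Figure D1:**
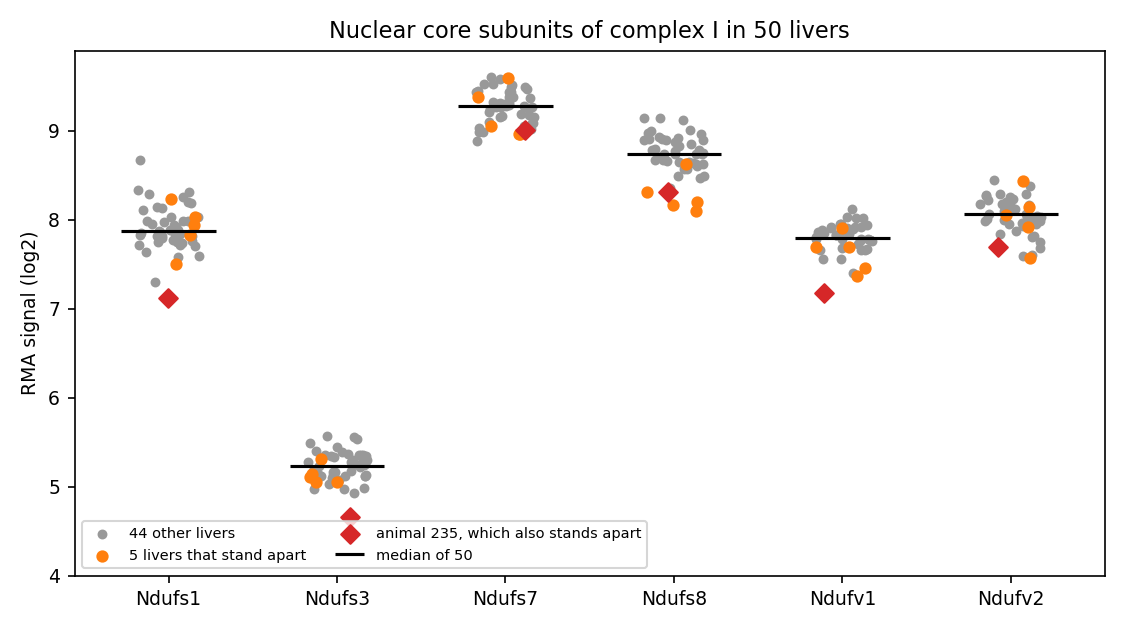
RMA signals (log2) of the 6 nuclear core subunits in each of the 50 livers, with the median as a line; orange points and the red diamond are the 6 livers that stand apart. Animal 235 is lowest in Ndufs1, Ndufs3 and Ndufv1, and orange points fill the low end of Ndufs8.

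The mean of the standardised core subunits (each gene in SD units around its mean over the livers) ranged from −2.38 in animal 235 to 1.35 in animal 101. Animal 235 had the lowest value in 18 of the 42 genes, and animal 101 the highest in 10. The shares of all named genes lowest in animal 235 or highest in animal 101 are not given here. These counts thus have no background beside them. Animal 235 also had the highest macrophage marker score, at 4.001 against a median of 0.05 over the livers, and the highest stellate and fibroblast marker score, at 1.36 against a median of −0.08. Animal 161, with the second lowest core mean at −1.64, had the highest mammary epithelium score, at 4.06 against a median of −0.08; its part in the result was not tested. In whole liver, fewer cells of a type and less RNA per cell cannot be told apart.

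The spread of the genes between livers was modest. Their median SD was 0.23 (log2), against 0.21 over all named genes and 0.28 over the 11090 genes at or above the median level. By class the median SD was 0.20 for core subunits, 0.23 for accessory subunits and 0.28 for assembly factors. Ndufaf1, an assembly factor of the complex that builds the membrane arm, ranged from 5.10 in animal 235 through a median of 6.17 to 7.06 in animal 101, with an SD of 0.34. The other genes of largest SD were Ndufa4l2, at 0.67, and Ndufa11, a membrane-arm subunit, at 0.32. Ndufb11, Ndufs5 and Ndufaf5 had medians of 2.997, 3.04 and 3.40, below the median level of all genes, so that their values lie near the array's floor; the other 39 genes lay above it.

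Signals of the core subunits moved together from liver to liver. The median pairwise r over the 50 livers was 0.51 for the 15 pairs of core subunits, 0.32 for the 325 pairs of accessory subunits and 0.28 for the 28 pairs of assembly factors. Between classes it was 0.41 for core with accessory subunits, 0.38 for core subunits with assembly factors and 0.27 for accessory subunits with assembly factors. Over all 861 pairs of Nduf genes it was 0.32, against −0.0039 over all pairs of named genes; arrays share their normalisation and these r are descriptions. Without the 6 livers that stand apart the core median was 0.39, the accessory median 0.23 and the assembly median 0.26. Over all 50 livers all 15 core pairs and all 28 assembly pairs were positive, and 299 of the 325 accessory pairs were. Without the 6 livers the core pair Ndufs1 and Ndufs8 had r = −0.0014.

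Liver means of the classes were closer to each other than single genes were. The core mean and the accessory mean had r = 0.91 and rho = 0.87, and r = 0.91 again without the 6 livers. The core mean and the assembly mean had r = 0.81, and 0.73 without the 6 livers. The accessory and assembly means had r = 0.75, and 0.71 without them. A mean over more genes carries less noise of single probe sets, and the classes hold 6, 26 and 8 genes, so these r do not order the classes.

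**Figure D2:**
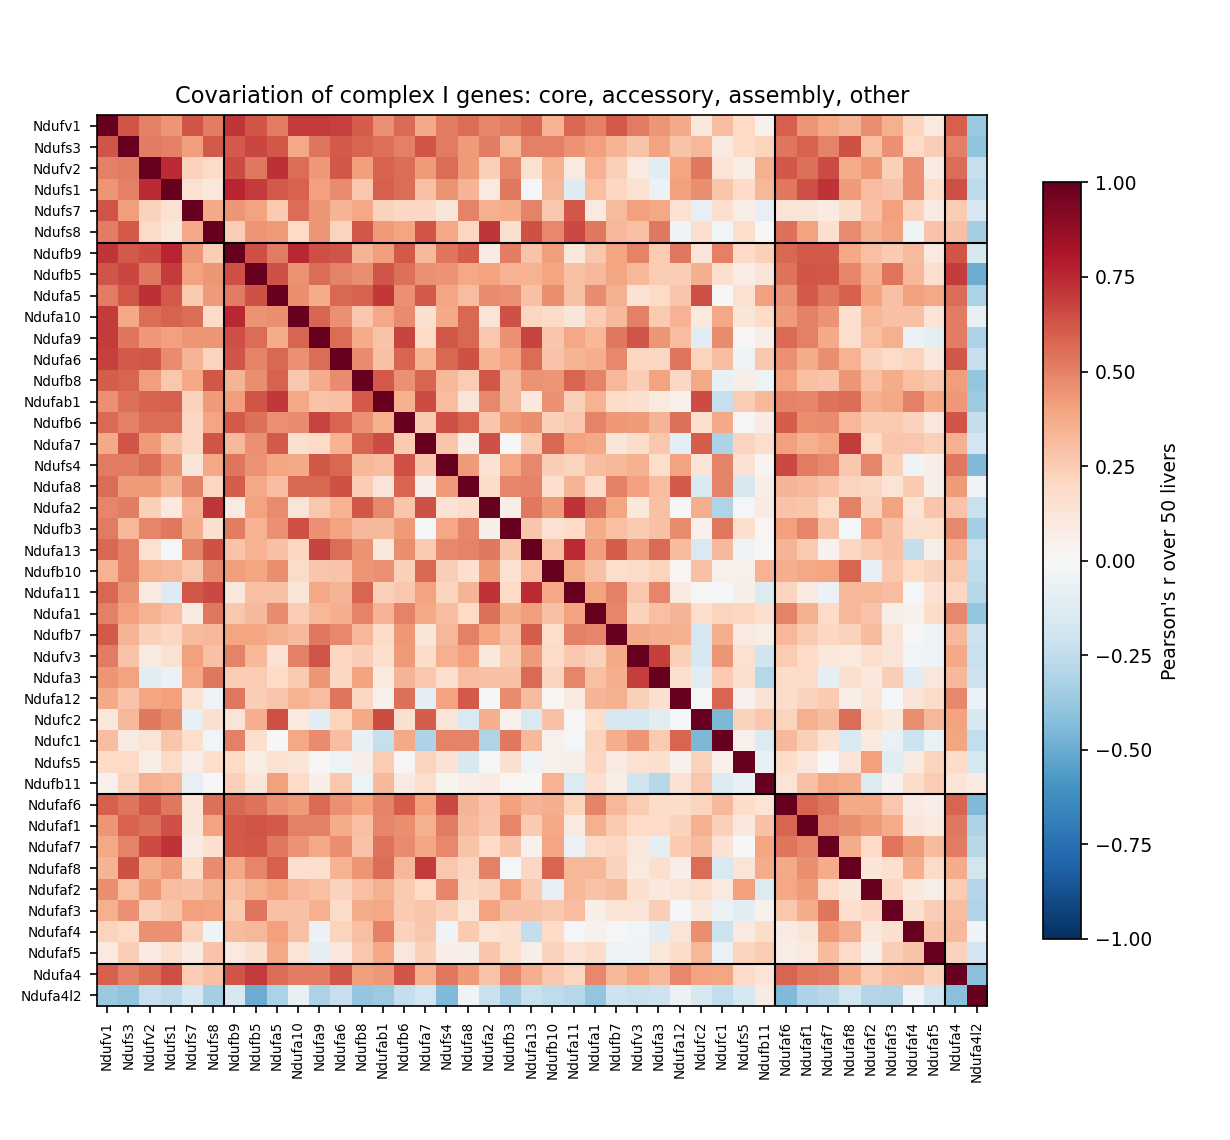
Pearson's r over the 50 livers between each pair of the 42 genes, from −1 (blue) to 1 (red), with lines between core, accessory, assembly and other genes, ordered within a class by mean r with the core. All core and assembly pairs are positive, the row of Ndufa4l2 is mostly blue, and Ndufc1 and Ndufc2 meet at −0.45.

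Among the accessory subunits, those with the highest mean r with the core were Ndufb9 at 0.57, Ndufb5 at 0.56, Ndufa5 at 0.53 and Ndufa10 at 0.50. Without the 6 livers that stand apart these had 0.49, 0.46, 0.45 and 0.40, and Ndufa6 had 0.48, so the order depends on those livers. Ndufb9, a membrane-arm subunit of the LYR protein family, ranged from 9.78 in animal 235 through 10.64 to 11.16 in animal 101. Ndufb5, a membrane-arm subunit, ranged from 5.73 through 6.38 to 6.74, and its lowest and highest livers were the same 2 animals. Ndufa5, of the matrix arm, ranged from 5.09 through 5.72 to 6.35. Ndufa10, a membrane-arm subunit of the nucleoside kinase family, ranged from 8.57 through 9.09 to 9.45. By position in the complex the accessory genes overlapped: mean r with the core ran from 0.26 to 0.53 with a median of 0.43 over 8 matrix-arm subunits, and from 0.15 to 0.57 with a median of 0.38 over 17 membrane-arm subunits.

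The lowest mean r with the core among accessory subunits belonged to Ndufb11 at 0.15, Ndufs5 at 0.15, Ndufc1 at 0.16 and Ndufc2 at 0.26. Without the 6 livers that stand apart these had 0.16, 0.17, 0.03 and 0.25, and Ndufa3 had 0.16. The signals of Ndufb11 and Ndufs5 lie near the floor. A second probe set, shared by Ndufs5 and its pseudogene Ndufs5-ps, had a median of 6.18 and r = 0.13 with the one used. A second probe set of Ndufs1, shared with Ino80dos, had a median of 3.16, near the floor, and r = 0.26 with the one used. Ndufa8, Ndufa11 and Ndufa12 have a further probe set of their own, with r of 0.49, 0.41 and 0.71 with the one used. Which livers are high in these genes therefore depends in part on the probe set.

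Within the core, 10 of the 15 pairs were called when one gene of the pair was fitted on the other by limma with p-values adjusted over all named genes. The covariate was the gene that comes first by symbol, and the choice matters for 1 pair. Ndufs7 was called on Ndufs3 (limma adjusted p = 0.0417), but Ndufs3 was not called on Ndufs7. Ndufs1 and Ndufv2, neighbours in the NADH-binding part of the arm, had the highest r at 0.745 (permutation p = 1e-05, the smallest that 100000 permutations can give; rho = 0.704, permutation p = 1e-05; limma adjusted p = 3.92e-06). Without the 2 livers farthest on Ndufs1 r was 0.707, without the 6 that stand apart 0.718, and within 4 stretches of animal numbers (given further on) 0.647, 0.699, 0.728 and 0.542. Ndufs3 and Ndufv1 had r = 0.632 (permutation p = 1e-05, rho = 0.573, permutation p = 2e-05, limma adjusted p = 0.00098). Without the 2 livers farthest on Ndufs3 r was 0.519, and within the stretches it was 0.755, 0.518, 0.702 and 0.698. Ndufs7 and Ndufv1 had r = 0.625 (permutation p = 1e-05, rho = 0.622, permutation p = 1e-05, limma adjusted p = 0.014). Without the 2 livers farthest on Ndufs7 r was 0.663, and within the stretches it was 0.211, 0.662, 0.720 and 0.615. Each of these 3 pairs was positive in all 4 stretches.

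The pair Ndufs1 and Ndufs8 gave the lowest r of the core, at 0.111 (permutation p = 0.442, rho = 0.133, permutation p = 0.355, limma adjusted p = 0.74). Within the stretches, however, r was 0.008, 0.241, 0.754 and 0.427, and 0.408 after each stretch was centred on its mean. Without the 2 livers farthest on Ndufs1 it was 0.002. Ndufs1 and Ndufs7 likewise had r = 0.149 (permutation p = 0.302, rho = 0.105, permutation p = 0.466, limma adjusted p = 0.637), against 0.417 after centring and 0.635, 0.433, 0.389 and 0.185 within the stretches. Without the 2 livers farthest on Ndufs1 that r was 0.021. The medians of Ndufs1 in the stretches were 7.85, 8.19, 7.77 and 7.87, and those of Ndufs8 were 8.99, 8.66, 8.64 and 8.83. By these medians Ndufs1 was highest in the second stretch and Ndufs8 in the first.

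**Figure D3:**
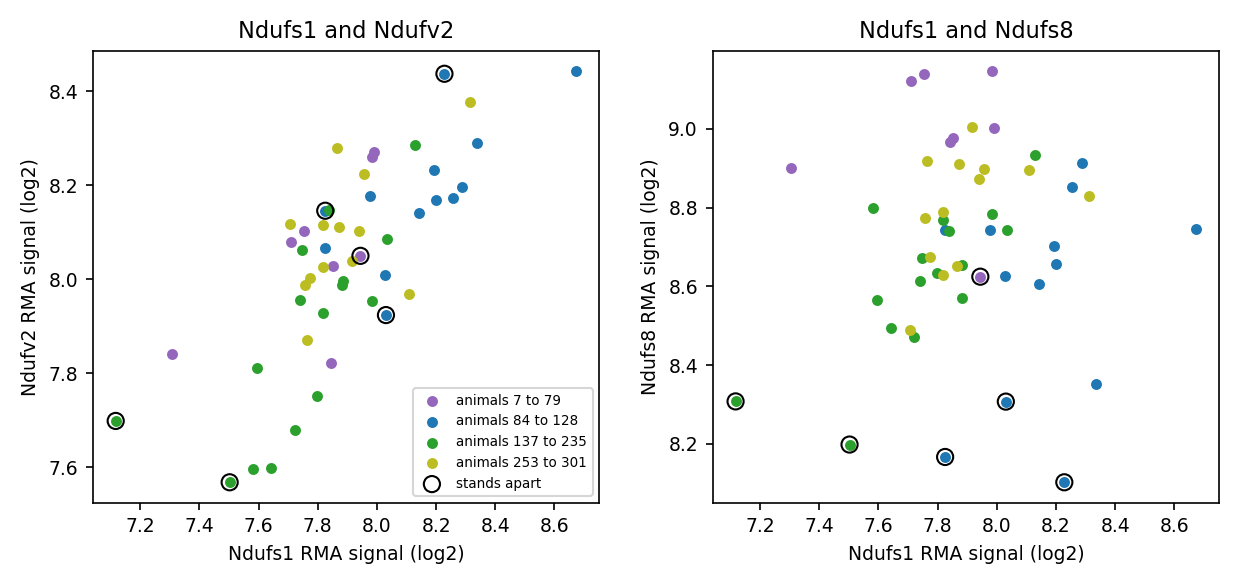
RMA signals (log2) of Ndufv2 (left) and Ndufs8 (right) against Ndufs1 in the 50 livers, coloured by stretch of animal numbers, with rings around the 6 livers that stand apart. For Ndufv2 r is positive in every colour, whereas for Ndufs8 the first stretch lies above the second at lower Ndufs1, with a pooled r of 0.111.

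Every gene was next fitted, on the log2 scale, on other measures of the mitochondrion, by limma with Benjamini-Hochberg adjustment over all named genes and a call at an adjusted p of 0.05. Slopes are in log2 units per SD of the covariate over the livers, and the share of all named genes called is given beside each count. On the mean of the nuclear genes of complexes II to V, 34 of the 42 Nduf genes, or 81.0%, were higher, against 7.73% of all named genes. They comprised 6 of 6 core subunits, 22 of 26 accessory subunits, 5 of 8 assembly factors and Ndufa4. The median slope was 0.13 over the 42 genes and 0.0046 over all named genes. Ndufv1 had a slope of 0.15 ± 0.016 (SE, adjusted p = 7.94e-09) and Ndufa6, a LYR protein of the matrix arm, 0.20 ± 0.025 (adjusted p = 3.1e-07). Ndufa4l2 was called lower, as were 8.1% of all genes, and this call was lost without animal 235 (adjusted p = 0.103).

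The 7 genes that were not called in either direction were Ndufaf3, Ndufaf4, Ndufaf5, Ndufb11, Ndufc1, Ndufc2 and Ndufs5. Of these, Ndufaf5, Ndufb11 and Ndufs5 are those near the floor. Without the 6 livers that stand apart 21 were higher (2.45% of all genes), and with hepatocyte, stellate and macrophage marker scores as further covariates 20 were (1.001% of all genes). Without 13 livers, the 6 and those with an extreme score on any cell type marker list, 12 were higher (1.05% of all genes). The share of all genes thus fell along with the count.

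**Figure D4:**
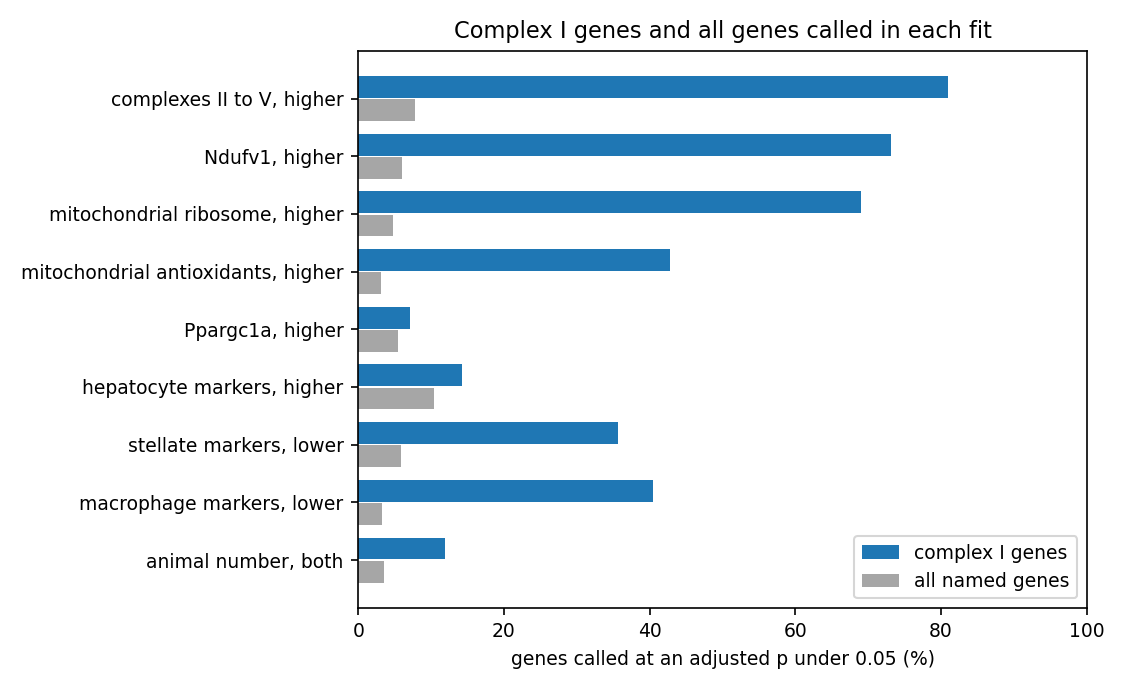
Percent of genes called at an adjusted p under 0.05 in each limma fit over 50 livers, complex I genes in blue above all named genes in grey; each row names the covariate and the direction counted. The blue bar is 81.0% against 7.73% for complexes II to V, and the bars are close for Ppargc1a and hepatocyte markers.

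Fitted on Ndufv1 alone, 30 of the other 41 Nduf genes were higher, against 6.05% of all named genes. They were all 5 remaining core subunits, 20 of 26 accessory subunits, Ndufaf1, Ndufaf2, Ndufaf6 and Ndufaf7 among the assembly factors, and Ndufa4. Without the 6 livers that stand apart the count was 9 (0.555% of all genes), and with the 3 cell type scores as covariates 8 (0.293%). With ranks in place of signals it was 15, with the share of all genes not given here. The count thus depends on the livers that stand apart, and the share of all genes fell with it. Ndufa4l2 was the 1 Nduf gene called lower, as were 7.53% of all genes. By limma 0 were called lower without animal 235, where 1 had an unadjusted p under 0.05, and 0 were without the 6 livers, with ranks or with the cell type scores, where 0 did.

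Genes of the same chain followed Ndufv1. All 4 subunits of complex II rose with it, among them Sdhb, its iron-sulphur subunit, with a slope of 0.16 ± 0.027 (adjusted p = 5.13e-05). In complex III 7 of 8 did, led by Cyc1, cytochrome c1, at 0.22 ± 0.024 (adjusted p = 1.66e-08). In complex IV 6 of 9 and in complex V 8 of 15 did. Of 9 other assembly factors 3 did, Acad9 and Ecsit, partners of Ndufaf1 in the assembly of the membrane arm, and Tmem70. No gene of these lists was called lower. Animal 235 is lowest in Ndufv1, and how many of these calls hold without it or the other livers that stand apart is not given here.

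The 7 subunits encoded by mitochondrial DNA did not pass on Ndufv1 or Ndufs1 by limma, although 1 on Ndufv1 and 0 on Ndufs1 had an unadjusted p under 0.05. ND1 ranged from 12.64 through 12.80 to 12.97, and 5 others lay between 12.28 and 13.37, with medians from 12.60 to 13.24. The highest value on any array was 13.54. ND6, with a median of 10.06 and a range from 9.35 to 10.92, had a slope of 0.12 ± 0.049 on Ndufv1 (adjusted p = 0.0958). On complexes II to V 1 of the 7 was called higher, ND3, with a slope of 0.047 ± 0.017 (adjusted p = 0.0485), and not without animal 235 (adjusted p = 0.367). What the high signals of the 6 others than ND6 leave of a change in RNA was not tested.

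Of 9 regulators of mitochondrial biogenesis, 2 rose with Ndufv1. They were Tfam, which packages and transcribes mitochondrial DNA, at 0.14 ± 0.039 (adjusted p = 0.0085), and Gabpa, a subunit of the ETS factor that activates respiratory chain genes, at 0.072 ± 0.024 (adjusted p = 0.0373). Pprc1, a coactivator related to Ppargc1a, went the other way. Its slope was −0.14 ± 0.052 on Ndufv1 (adjusted p = 0.0602), and it was lower with Ndufs1 at −0.16 ± 0.051 (adjusted p = 0.0353) and with complexes II to V at −0.18 ± 0.049 (adjusted p = 0.00562). Without animal 235 the slope on complexes II to V was −0.15 (adjusted p = 0.0532). Ppargc1a, the coactivator of mitochondrial biogenesis, ranged widely, from 3.97 through 6.41 to 7.94, with a slope of 0.16 ± 0.093 on Ndufv1 (adjusted p = 0.279). Fitted on Ppargc1a itself, 3 of 42 Nduf genes, or 7.14%, were higher, against 5.52% of all genes, a share near the background. The 3 were Ndufa6, Ndufc1 and Ndufa4. By limma 0 were called higher without animal 235, where 3 had an unadjusted p under 0.05. None of the 42 was lower, against 8.54% of all genes, and 0 had an unadjusted p under 0.05 in that direction.

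The mitochondrial ribosome, which makes the membrane-arm core, went along with the Nduf genes. On the mean of its 47 genes, 29 of 42 Nduf genes, or 69.0%, were higher, against 4.72% of all named genes, including 6 of 6 core subunits, 16 of 26 accessory subunits and 6 of 8 assembly factors. None was called lower, against 5.39% of all genes, and 1 had an unadjusted p under 0.05 in that direction by limma. With the 3 cell type scores as covariates 19 were higher, and without the 13 livers 6 were. The share of all genes in those settings is not given here, so these counts have no background beside them. On the mean of 9 mitochondrial antioxidant enzymes 18, or 42.9%, were higher, against 3.12% of all genes, and none was lower, against 3.17% (1 at an unadjusted p under 0.05 by limma). Of these enzymes Sod2, the matrix superoxide dismutase, rose with Ndufv1 at 0.11 ± 0.037 (adjusted p = 0.0377), and so did Txn2, the mitochondrial thioredoxin, at 0.13 ± 0.029 (adjusted p = 0.00138). The other enzymes of the list were not called on Ndufv1 by limma (adjusted p from 0.0723 for Glrx5 to 0.324 for Nnt). All of these fits on Ndufv1 are over the full set of livers. Without the 13 livers 4 Nduf genes were higher with the antioxidant mean, and the share of all genes there is not given here.

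Marker lists of liver cell types moved with the Nduf genes. On the macrophage score 17 of 42 Nduf genes, or 40.5%, were lower, against 3.24% of all genes, among them Ndufs1 at −0.16 ± 0.031 (adjusted p = 0.000177) and Ndufv1 at −0.10 ± 0.023 (adjusted p = 0.00174). Without animal 235 alone 2 were lower. On the stellate and fibroblast score 15, or 35.7%, were lower, against 5.82% of all genes, and 4 were without animal 235. The share of all genes without animal 235 is not given here for either score. No Nduf gene was higher with the macrophage score, against 6.6% of all genes, or with the stellate and fibroblast score, against 5.91%, and 0 had an unadjusted p under 0.05 in that direction by limma. All 12 macrophage markers lay above the median level of all genes, with medians between 6.25 and 9.12, and so did 11 of 12 stellate and fibroblast markers, so neither list was absent.

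Fitted on Ndufv1, 10 of 12 macrophage, 7 of 10 neutrophil, 5 of 12 stellate and fibroblast, 4 of 10 endothelial and 3 of 10 lymphocyte markers were lower and none of these lists had a marker called higher. Of all named genes 7.53% were lower with Ndufv1 and 6.05% were higher. The neutrophil genes were S100a8, S100a9, Retnlg, Camp, Ngp, Elane and Mpo. Only 2 of the 10 neutrophil markers and 5 of the 10 lymphocyte markers had medians above the median level of all genes, whereas all 10 endothelial markers did. On complexes II to V 11 macrophage, 8 neutrophil, 5 stellate and fibroblast and 4 endothelial markers were lower, against 8.1% of all named genes. Without animal 235 the counts on Ndufv1 were 0 macrophage, 5 neutrophil, 2 stellate and fibroblast, 0 endothelial and 0 lymphocyte markers, with 8, 8, 4, 3 and 6 at an unadjusted p under 0.05 by limma. Leaving out all 6 livers, 2 stellate and fibroblast markers and 0 of the other 4 lists were lower with Ndufv1, with 7 macrophage, 7 neutrophil, 4 endothelial and 1 lymphocyte markers at an unadjusted p under 0.05 by limma. For the counts without animal 235 or the 6 livers the share of all genes lower is not given here. Scores over the livers ran from −1.91 to 4.001 for macrophages, from −0.94 to 2.61 for neutrophils, from −2.52 to 1.54 for endothelium and from −0.99 to 2.97 for lymphocytes. The part of neutrophils, endothelium and lymphocytes in the results on the Nduf genes was not tested.

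With hepatocyte markers the counts did not exceed the background by much. On their score 6 of 42 Nduf genes, or 14.3%, were higher, against 10.4% of all genes, and 2, or 4.76%, were lower, against 13.5%. The 6 were Ndufa8, Ndufa9, Ndufa13, Ndufb6, Ndufc1 and Ndufs4, all accessory. Without the 6 livers that stand apart 0 were called higher by limma, and 1 had an unadjusted p under 0.05. Animal 64, which stands apart, has the lowest hepatocyte score, −3.51, and the lowest signals in 5 Nduf genes, yet its core mean was 0.02. The share of all named genes lowest in animal 64 is not given here.

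With other core subunits as the covariate, a choice added after the data were seen, the counts depended on the subunit. Of 41 Nduf genes, 28 were higher with Ndufs3 (4.81% of all genes), 21 with Ndufs1 (6.02%), 19 with Ndufv2 (2.67%), 18 with Ndufs8 (5.42%) and 3 with Ndufs7 (0.158%). The 3 with Ndufs7 were Ndufv1, Ndufa10 and Ndufa11, and by limma 0 were called without the 13 livers, where 11 had an unadjusted p under 0.05, or with ranks, where 20 did. The counts without the 6 livers were 8 with Ndufs3, 6 with Ndufs8 and 3 with Ndufs7, and without animal 235 the count with Ndufs3 was 9. For these counts the share of all genes is not given here. Lower genes were 1 with Ndufs3, again Ndufa4l2 (5.04% of all genes; 0 without animal 235, 1 at an unadjusted p under 0.05 by limma), and 0 with Ndufs1 (5.15%), Ndufv2 (1.62%), Ndufs8 (6.44%) and Ndufs7 (0.0406%). Of these 4 fits by limma, the one on Ndufs8 had 1 Nduf gene lower at an unadjusted p under 0.05 and the others had 0. A count with 1 subunit and not with another does not show a difference, so Ndufs1 and Ndufs8, the pair with the lowest r, were fitted together and the difference of their slopes was tested. Of 40 other Nduf genes 3 had a higher slope on Ndufs1 (4.29% of all genes) and 4 a higher slope on Ndufs8 (1.81%).

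Ndufv2 was one of the 3, with a slope of 0.15 on Ndufs1 and 0.023 on Ndufs8 and a difference of 0.13 ± 0.033 (adjusted p = 0.0106). Ndufb9 and Ndufaf7, an assembly factor and methyltransferase, were the others, with differences of 0.14 ± 0.035 and 0.16 ± 0.040 (adjusted p = 0.0109 and 0.00958). On the side of Ndufs8 were Ndufa2, Ndufa3, Ndufa11 and Ndufa13. Ndufa11 had a slope of −0.064 on Ndufs1 and 0.22 on Ndufs8, with a difference of −0.28 ± 0.051 (adjusted p = 0.000338). With stretches of animal numbers as a block the count on the side of Ndufs8 was 0 by limma (2.23% of all genes), with 1 at an unadjusted p under 0.05. On the side of Ndufs1 it was 2, Ndufv2 and Ndufc2 (2.53% of all genes). When the 6 livers that stand apart were left out, Ndufb9, Ndufc1 and Ndufv2 were called on the side of Ndufs1 (4.18% of all genes). On the side of Ndufs8 they were Ndufa2, Ndufa7 and Ndufa11 (1.86%). Ndufaf7, Ndufa3 and Ndufa13 thus lost their calls. Few of the 40 genes were thus told apart by the pair, and the 3 on the side of Ndufs1 lie near the background.

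The genes most like a core subunit over all named genes, named after their values were seen and so given with no test, differed between Ndufv1 and Ndufs1. For Ndufv1 they were Cyc1 (r = 0.82), the cytosolic superoxide dismutase gene Sod1 (0.80) and Uqcrc1, a core subunit of complex III (0.78). For Ndufs1 they were Dld, the dihydrolipoyl dehydrogenase of the pyruvate and oxoglutarate dehydrogenase complexes (0.92), Ptgr2 (0.82) and Atp5pb, a stalk subunit of complex V (0.82). Of the 9 other assembly factors 7 rose with Ndufs1, Nubpl, which delivers iron-sulphur clusters to complex I, among them at 0.19 ± 0.036 (adjusted p = 0.000294). These 7 calls are likewise given over all livers only.

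The highest pair of the assembly factors was Ndufaf1 with Ndufaf6, at r = 0.58, and the lowest was Ndufaf2 with Ndufaf5, at 0.06. Ndufaf6, which acts early in assembly, ranged from 4.34 through 5.09 to 5.50 and had the highest mean r with the core of the 8, at 0.49. Without the 6 livers that stand apart it had 0.36, below Ndufaf2 at 0.37. Ndufaf7 ranged from 5.28 through 5.95 to 6.63, with a mean r of 0.42 with the core and r = 0.72 with Ndufs1. Ndufaf8, the partner of Ndufaf5, ranged from 5.40 through 5.96 to 6.68. Ndufaf6, Ndufaf7 and Ndufaf8 had their lowest values in animal 235. Ndufaf2, an assembly factor related in sequence to Ndufa12, ranged from 3.45 through 3.97 to 4.66. Ndufaf3 and Ndufaf4 act together on the ubiquinone-binding part of the matrix arm. Ndufaf3 ranged from 5.51 through 6.04 to 6.44, and Ndufaf4 from 5.99 through 6.42 to 7.40. Ndufaf3 was highest in animal 64 and Ndufaf4 in animal 84, both livers that stand apart, and r between Ndufaf4 and the core averaged 0.25. Ndufaf5, which hydroxylates Ndufs7, ranged from 2.97 through 3.40 to 3.65, near the floor.

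Ndufa4 followed the core subunits. It ranged from 9.26 in animal 235 through 9.99 to 10.23 in animal 101. Its mean r with the core was 0.48, and 0.29 without the 6 livers that stand apart. Its paralogue Ndufa4l2, induced by hypoxia in human cells through HIF, ran the other way. The mean r of Ndufa4l2 with the core was −0.29, and −0.21 without the 6 livers. Ndufa4l2 ranged from 3.30 through a median of 3.71 to 6.52, so its usual value is near the median level of all genes. Animals 87, 257 and 170 had 6.52, 6.39 and 5.74, and the other 47 lay at or below 4.58. Without these 3 its SD was 0.29, against 0.67 with them.

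The genes most like Ndufa4l2 over the 50 livers had lower r without the same 3 livers. They were Fgf23, a phosphate-regulating hormone (r = 0.87, rho = 0.28), Ffar4, a receptor for long-chain fatty acids (r = 0.87, rho = 0.24), and Tnfrsf9, a costimulatory receptor of T cells (r = 0.83, rho = 0.53). Without the 3 livers r was 0.26, 0.51 and 0.61. The fourth most alike was Tubb1, with r = 0.80, and 0.54 without the 3 livers. Hilpda, a HIF target on lipid droplets, was the fifth, with r = 0.79, and 0.59 without the 3 livers. Tubb1 and Hilpda were added outside the rule that named 3 genes, and a link to hypoxia was not tested. Animals 87 and 257 had Hilpda signals of 7.24 and 7.14 beside a median of 5.25, but animal 170 had 5.33, so the 3 livers are not alike in it. On complexes II to V Ndufa4l2 had a slope of −0.25 ± 0.086 (adjusted p = 0.037). Without animal 235, which is not one of the 3, the slope was −0.23 (adjusted p = 0.103), without the 6 livers it was −0.11 (adjusted p = 0.528), and without the 13 livers, which include all 3, it was 0.030.

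Animal numbers fall into 4 stretches that an earlier look at these arrays separated (7 to 79, 84 to 128, 137 to 235 and 253 to 301, with 8, 13, 16 and 13 livers). What the order stands for is not given in the labels. Along the animal number 5 of 42 Nduf genes, or 11.9%, were called, against 3.52% of all named genes. Of them 1 was higher (1.28% of all genes) and 4 were lower (2.24%). Ndufc2, a membrane-arm subunit, was lower at higher numbers by −0.19 ± 0.029 log2 per SD (adjusted p = 3.4e-05), with stretch medians of 8.77, 8.59, 8.21 and 8.28. Ndufc1, also of the membrane arm, was higher, by 0.15 ± 0.033 (adjusted p = 0.00483), with stretch medians of 5.53, 6.06, 6.01 and 6.11.

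The first stretch of Ndufc1 lay between 5.19 and 5.68, and the other livers between 5.54 and 6.29, so the ranges overlap at one end. The 4 lowest values outside the first stretch came from animals 84, 87, 96 and 235, all of which stand apart. Ndufa7, Ndufab1, the mitochondrial acyl carrier protein, and Ndufaf8 were lower at higher numbers. Ndufa7 had stretch medians of 6.96, 6.64, 6.41 and 6.52. With the stretch as a block 0 Nduf genes and 0 of all named genes were called by limma, and 1 Nduf gene had an unadjusted p under 0.05. The stretches are cut from the animal number itself, so this fit keeps only the change within stretches. It cannot show whether the calls along the number would hold apart from the stretches.

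**Figure D5:**
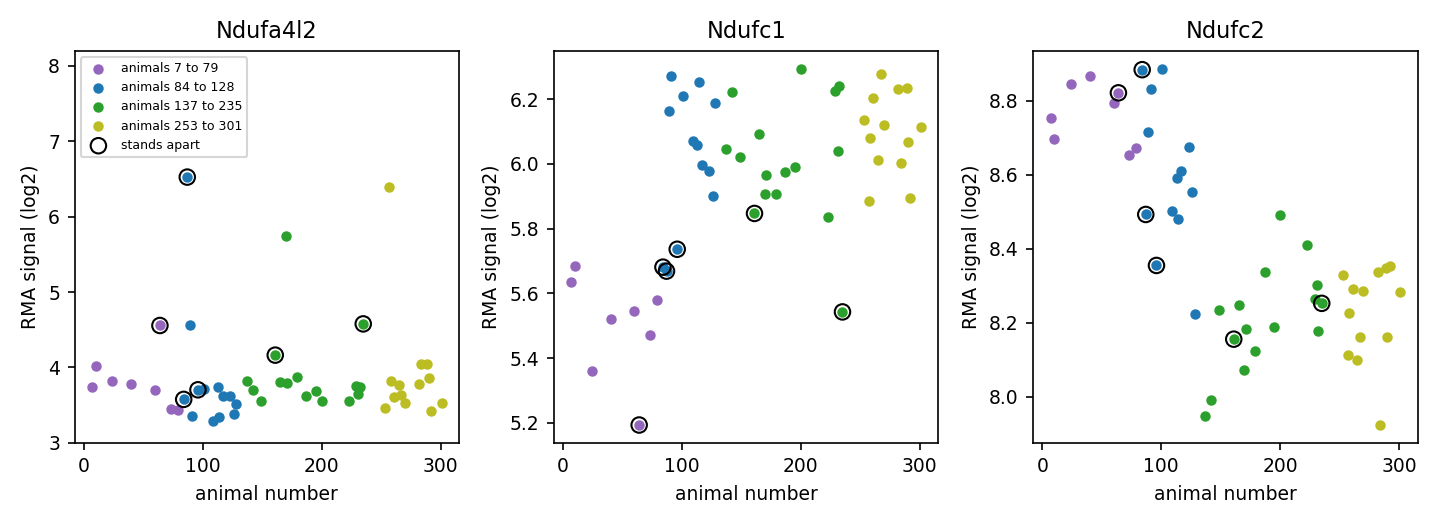
RMA signals (log2) of Ndufa4l2, Ndufc1 and Ndufc2 against animal number in the 50 livers, coloured by stretch, with rings around the 6 livers that stand apart. Ndufa4l2 is high in animals 87, 170 and 257, Ndufc1 is low in the first stretch, and Ndufc2 is highest there and in part of the second.

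Ndufc1 and Ndufc2 had the lowest r of all accessory pairs, at −0.45. The genes most like Ndufc1 were Mtch2, a mitochondrial outer membrane insertase (r = 0.80), Pcca, a subunit of propionyl-CoA carboxylase (0.79), and Tstd3 (0.79). Those most like Ndufc2, added after their values were seen, were Cnbp (0.80), Cetn3 (0.77) and Fam98b (0.76). For Ndufb11 the most alike genes reached r of 0.51, 0.51 and 0.50 (Vmn1r148, Gbx1 and Mir361), all near the floor like Ndufb11 itself. For Ndufs5 they were Tomm7, of the outer membrane import pore, Tbc1d9b and Pramel1, at 0.53, 0.52 and 0.48.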

How the data were processed

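RNA of 50 livers was hybridised to Affymetrix arrays. Per the submitters' processing notes the authors deposited log2 values made by RMA in Affymetrix Expression Console 1.4.1; the genome build is not given in the sources used here. Of 41345 probe sets 23521 carry 1 gene symbol, 1814 several and 16010 none in the platform annotation; the first were reduced to 22180 genes. Genes were fitted with limma 3.58.1 (lmFit, eBayes with trend; R 4.3.3) on 1 standardised covariate, all 50 livers in one fit, Benjamini-Hochberg over all genes. Permutation tests (two-sided, 100000) and other statistics used Python 3.11.15. The members and gene lists were chosen with earlier results of these data known. Core subunits, assembly factors, the 4 accessory genes highest and lowest in mean r with the core, the 3 of largest SD, and the 3 genes most like each of the 4 lowest members were named by rule. A liver stands apart when its median r with the other arrays lies over 3 interquartile ranges below the lower quartile. In simulated data for the fit on complexes II to V (22180 genes, 200 changed), 34.5%, 84% and 98.5% were recovered at slopes of 0.1, 0.2 and 0.4. Of the calls 6.76%, 2.89% and 3.90% were false. The simulated noise was normal and independent between genes, unlike that of the real arrays, so these shares may not carry over to them. Alternatives were the livers used, the first array component, stretches as a block, array centring, mean probe sets, a level filter and ranks. The number of arrays limits precision.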

Additional observations from a re-analysis of the deposited data

How the results depend on the processing

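No paired analysis was possible because the labels give 1 group. The main counts of Nduf genes that moved by over 1.5 times are these, and the cause was not tested. The share of all named genes called also differs between settings and is not given beside the counts of this section. These counts therefore do not show how far the Nduf genes exceeded all genes. Without the 6 livers that stand apart, 21 were higher with complexes II to V, 9 with Ndufv1, 0 with Ppargc1a and 0 with hepatocyte markers, and 2 and 3 were lower with stellate and macrophage markers. Without the 13 livers the counts were 12 with complexes II to V, 4 with Ndufv1, 6 with the mitochondrial ribosome, 4 with antioxidant enzymes, 0 with Ppargc1a, 0 with hepatocyte, 0 with stellate and 2 with macrophage markers. With the first array component as covariate they were 14 with Ndufv1, 0 with Ppargc1a, 0 with hepatocyte, 0 with stellate and 10 with macrophage markers. With ranks they were 15 with Ndufv1, 9 with antioxidant enzymes, 0 with Ppargc1a, 0 with hepatocyte, 5 with stellate and 0 with macrophage markers. With arrays centred on their medians 11 were lower with macrophage markers. With stretches as a block 1 was higher with Ppargc1a, 0 were related to animal number and 0 had a higher slope on Ndufs8 than on Ndufs1. The stretches are cut from the animal number, so the block leaves only the part of that number within stretches. The 1 lower call with complexes II to V, Ndufv1 and Ndufs3, that of Ndufa4l2, was lost without the 6 livers, without the 13, without animal 235, with the first component, with ranks and with cell type scores. Counts with the other core subunits moved as well. Without the 13 livers they were 8 with Ndufs1, 3 with Ndufs3, 0 with Ndufs7, 4 with Ndufs8 and 9 with Ndufv2, and without the 6 they were 8 with Ndufs3 and 6 with Ndufs8. With the first component they were 11 with Ndufs3, 5 with Ndufs7 and 7 with Ndufs8, with ranks 18 with Ndufs3 and 0 with Ndufs7, and with the stretch block 5 with Ndufs7. Cell type scores left 8 with Ndufs1, 3 with Ndufs3 and 12 with Ndufv2, and 9 were higher with Ndufs3 without animal 235.

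Settings chosen after seeing the data were cell type scores as covariates, which left 20 with complexes II to V, 8 with Ndufv1, 19 with the ribosome, 8 with antioxidant enzymes and 0 with Ppargc1a, and the removal of animal 235, which left 0 with Ppargc1a, 3 with hepatocyte, 4 with stellate and 2 with macrophage markers. Slopes that changed sign were those of Ndufa4l2 on complexes II to V without the 13 livers (0.030), of Ndufa13 on hepatocyte markers without the 6 (−0.0048), of Ndufb6 on hepatocyte markers without the 13 (−0.0049) and with the first component (−0.018), and, on animal number with the block, of Ndufab1 (0.11), Ndufc1 (−0.031) and Ndufc2 (0.072). Those on animal number with the block are slopes within stretches, which are cut from that number. Of 79 called or named gene results, 39 kept their direction and side of the threshold without the 6 livers, 19 without the 13, 52 without animal 235, 50 with the first component, 63 with the stretch block, 72 with centred arrays and 78 with the mean of all probe sets. With cell type scores 34 did and 27 lost their call, and with the level filter 73 did and 3 passed anew, the remaining results having no value there. Signals near the floor limit Ndufb11, Ndufs5 and Ndufaf5, and signals near the top may limit the mitochondrial subunits other than ND6.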
